A study of Mus musculus and Homo sapiens with 176 samples.

Results

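Protocadherins are the largest group of the cadherin superfamily of adhesion proteins. In the nuclear RNA tables of this study 71 of 24854 gene features have a symbol beginning with Pcdh, and all 71 are described here. They were chosen by symbol: 15 Pcdha, 22 Pcdhb and 22 Pcdhg features from the 3 gene clusters on chromosome 18, and 12 non-clustered genes, whose symbol is Pcdh followed by a number. The study tested a low-input method for mapping histone marks, and it added RNA sequencing of brain nuclei. Only the 8 RNA libraries of sorted nuclei are used here. All of them came from 1 mouse (labelled M3) of the C57BL/6 strain, aged 8 to 10 weeks per the labels, which name no treatment. There are 4 groups of 2 libraries each, made by sorting nuclei of prefrontal cortex and of cerebellum into NeuN+ and NeuN- fractions. NeuN is the product of Rbfox3, and most but not all neurons carry it, so that the NeuN- fraction holds glia and also some neurons. The labels' protocol describes the dissection of the cerebellum only. What the libraries of a group share beyond the animal is not stated, so every p-value rests on differences between libraries of a single mouse and does not extend to other mice.

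Protocadherins are membrane proteins with a row of extracellular cadherin repeats and bind the same protein on the neighbouring cell. In the Pcdha and Pcdhg clusters, each isoform has its own promoter and its own large first exon, which is spliced to constant exons shared by the cluster, whereas Pcdhb genes have a single exon each. Neurons choose few isoforms each, and the resulting combinations let a neurite recognise and avoid branches of its own cell. The last isoforms of a cluster, the C-types Pcdhac1, Pcdhac2, Pcdhgc3, Pcdhgc4 and Pcdhgc5, are less subject to random choice. The non-clustered delta-protocadherins act more like classical adhesion and guidance molecules in axon sorting and synapse formation.

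Values are FPKM (fragments per kilobase of transcript, set against the library's mapped fragments) as deposited, multiplied by 1 factor per library so that the typical feature has the same level in every library ("scaled FPKM"). Differences are given as log2 changes, the difference between group means of log2(scaled FPKM + 1), with the standard error (SE) of the fit; the added 1 understates changes of low genes. A difference is called when its Benjamini-Hochberg adjusted p from limma, computed over all 14376 features tested, is under 0.05. Libraries held 11256 to 12494 features with at least 1 FPKM, and the deepest had 1.51 times the relative depth of the shallowest. As a check of the sort, scaled Rbfox3 in the prefrontal libraries was 16.8 and 16.3 (NeuN+) against 12.4 and 10.9 (NeuN-), and in the cerebellar ones 127 and 122 (NeuN+) against 34.3 and 35.3 (NeuN-). The summed level of 5 oligodendrocyte markers was 75.9 to 82.0 in prefrontal NeuN+ and 1677 to 1687 in prefrontal NeuN-, and 184 to 187 against 1422 to 1442 in cerebellum. The sum of 6 granule cell markers was 716 to 724 in cerebellar NeuN+ and 198 to 199 in cerebellar NeuN-, with 25.6 to 32.2 in prefrontal cortex. The sum of 5 Purkinje markers was high in both cerebellar gates, at 479 to 487 in NeuN+ and 429 to 457 in NeuN-. In prefrontal cortex this sum was 41.1 to 58.4. Most of the cerebellar sum was Pcp2, at 411 and 406 in NeuN+ and 369 and 399 in NeuN-. Car8, Itpr1 and Ppp1r17 were also higher in cerebellum than in prefrontal cortex within each gate. Calb1 was lower in cerebellum in each gate, with 32.03 and 31.14 in cerebellar NeuN+ against 44.04 and 42.58 in prefrontal NeuN+. Of 5 markers of cortical interneurons, Sst was at 1192 and 1097 in prefrontal NeuN- against 835 and 750 in NeuN+. Gad1, Gad2, Lhx6 and Vip lay the other way, with Gad1 at 53.7 and 58.5 in NeuN- against 60.9 and 61.5 in NeuN+. Cortical projection neuron markers were at 26.7 to 27.2 in NeuN- and 52.6 to 56.0 in NeuN+. The prefrontal NeuN- libraries thus held RNA of neuronal marker genes. The part of these cell mixtures in the protocadherin differences was not tested. In sorted bulk nuclei, fewer cells of a type and less RNA per cell cannot be told apart.

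Most protocadherin features were low. Of the 71, 28 reached 1 FPKM in at least 2 libraries and were tested (39.4%, against 57.8% of all features): 6 Pcdha, 9 Pcdhb, 5 Pcdhg and 8 non-clustered. Of the other 43, 37 stayed under 1 FPKM in all 8 libraries and 6 reached it in 1 library. Pcdhb1 was listed at 0 in all 8. Of the 28, 6 reached 1 FPKM in libraries of only 1 group: Pcdh8 and Pcdha7 in prefrontal NeuN+, Pcdha12 and Pcdhac1 in prefrontal NeuN-, Pcdhb16 in cerebellar NeuN- and Pcdhga7 in cerebellar NeuN+. These 6 were tested only because they were high there, so their calls against that group are no independent support, and counts are also given for the other 22. A limit applies to the clusters. On mm9, the 14 Pcdha features (the readthrough feature Pcdha7-g left aside) all end within 10 bases of each other at the constant exons (chromosome 18, 37089939 to 37347314), and all 22 Pcdhg features share their end in the same way (37821599 to 38001526). The 22 Pcdhb features between them (37424652 to 37681073) have 22 different ends and do not overlap each other. Fragments from the constant exons of Pcdha and Pcdhg fit every isoform of the cluster, so the isoform values of these clusters are estimates that depend on how those fragments were divided. How they were divided is not stated in the labels. The predicted transcripts Gm37013 and Gm38666, which span the clusters, were near 0 (at most 0.0536 scaled FPKM).

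Among the non-clustered genes, the clearest pattern was a low level in cerebellar NeuN+ nuclei. Of the 8 tested, 7 were lower in cerebellar than in prefrontal NeuN+, none was higher, and 1 was not called. Across all features, 40.7% were lower and 36.5% higher in this comparison (77.2% called). The median log2 change of the 8 genes was -1.74, against -0.03 for all features. Without Pcdh9, the 11 other non-clustered genes summed to 40.6 and 41.0 scaled FPKM in prefrontal NeuN+ and 41.0 and 40.2 in prefrontal NeuN-. In cerebellum the sum was 3.00 and 3.90 in NeuN+ and 19.2 and 18.8 in NeuN-. The 7 include Pcdh8, which was listed at 0 in cerebellum; without it, 6 of 7 were lower. The plot of each gene by library shows this low group, with Pcdh9 as an exception. It does not stand below cerebellar NeuN- in every gene: the cerebellar groups of Pcdh11x overlapped, and Pcdh8 was at 0 in both. In NeuN-, 4 of the 8 were lower in cerebellum, 1 was higher and 3 were not called. Of all features, 39.0% were lower and 40.5% higher there (79.4% called). Without Pcdh8, 3 of 7 were lower.

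**Figure D1:**
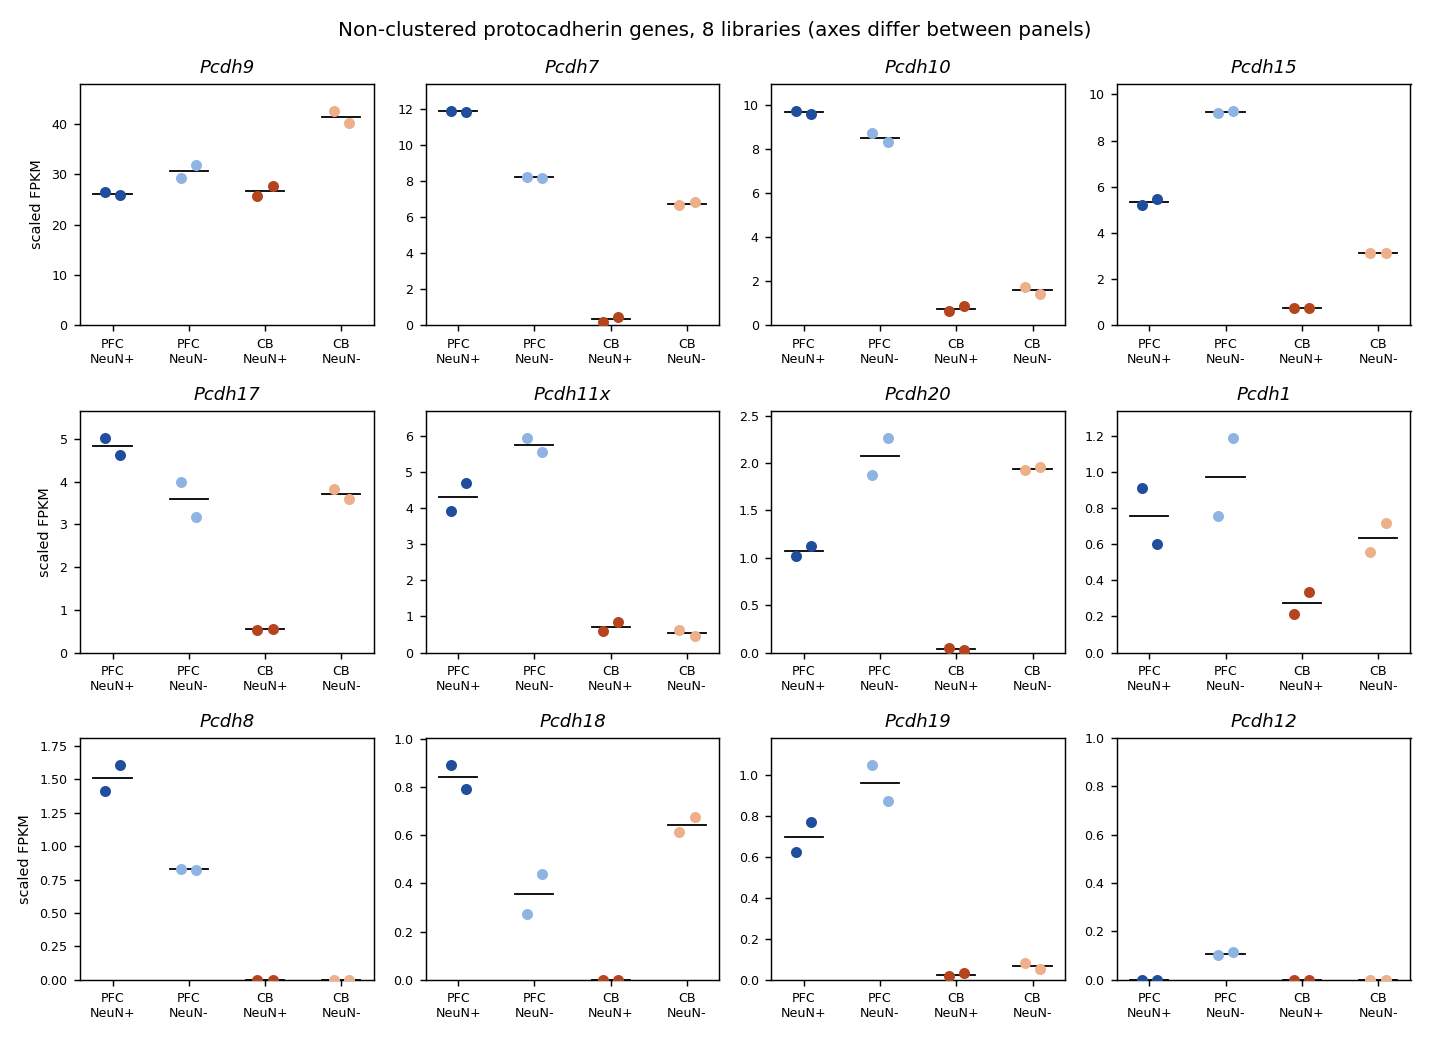
Scaled FPKM (vertical axis, from 0, scaled separately in each panel) of the 12 non-clustered protocadherins in prefrontal cortex (PFC) and cerebellum (CB), by NeuN gate; each point is 1 library and each line the mean of 2. Pcdh7 falls from 11.9 and 11.8 in prefrontal NeuN+ to 0.195 and 0.480 in cerebellar NeuN+, while Pcdh9 stays above 25 in every library.

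Pcdh7, a delta1-protocadherin that binds TAF1 and protein phosphatase 1 through its intracellular part, had the largest difference. Its gene lies on chromosome 5, 58109260 to 58523479. It stood at 11.9 and 11.8 scaled FPKM in prefrontal NeuN+ and 8.23 and 8.19 in prefrontal NeuN-. The cerebellar values were 0.195 and 0.480 (NeuN+) and 6.64 and 6.81 (NeuN-). No groups overlapped, and the cerebellar NeuN+ libraries stood far below all others. The log2 change from prefrontal to cerebellar NeuN+ was -3.27 (SE 0.10, limma adjusted p = 5.92e-07). In the NeuN- gate it was -0.25 and not called (adjusted p = 0.0584); it was called there with FPKM as deposited (-0.45), with quantile normalization (-0.30) and without either cerebellar NeuN+ library, and was 0.02 with a common sum. NeuN+ against NeuN- gave 0.48 (SE 0.10, adjusted p = 0.00523) in prefrontal cortex and -2.54 (SE 0.10, adjusted p = 2.36e-06) in cerebellum. The prefrontal call was lost with FPKM as deposited (0.27) and with a pseudocount of 0.1.

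Pcdh17, a delta2-protocadherin that organises synapses and axon bundles in the basal ganglia, had a profile close to that of Pcdh7. It lies on chromosome 14, 84843370 to 84936867. Levels were 5.03 and 4.62 scaled FPKM in prefrontal NeuN+ and 4.00 and 3.18 in prefrontal NeuN-, and the cerebellar libraries held 0.528 and 0.561 (NeuN+) and 3.82 and 3.61 (NeuN-). The 2 NeuN- groups overlapped, and cerebellar NeuN+ was again lowest. The log2 change was -1.91 (SE 0.10, adjusted p = 4.85e-06) between the NeuN+ groups and 0.04 between the NeuN- groups (adjusted p = 0.699). Cerebellar NeuN+ was below cerebellar NeuN- (-1.61, SE 0.10, adjusted p = 1.38e-05). The prefrontal gate change of 0.35 (SE 0.10, adjusted p = 0.0182) lost its call with FPKM as deposited and without prefrontal NeuN+ replicate 1 or prefrontal NeuN- replicate 2. The feature 9630013A20Rik overlaps Pcdh17 and was at 16.7 and 17.6 scaled FPKM in prefrontal NeuN- and at most 2.18 elsewhere. The labels do not say whether strand was used in counting, so the Pcdh17 value in that group is uncertain.

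Pcdh10, a delta2-protocadherin that recruits the WAVE complex and MDM2 and acts in synapse elimination, separated the regions in both gates. Its gene lies on chromosome 3, 45182320 to 45238501. It was at 9.74 and 9.56 scaled FPKM in prefrontal NeuN+ and 8.71 and 8.29 in prefrontal NeuN-. In cerebellum it was 0.651 and 0.874 in NeuN+ and 1.76 and 1.42 in NeuN-. All 4 prefrontal libraries lay above all 4 cerebellar ones. The log2 change was -2.60 in NeuN+ (SE 0.10, adjusted p = 1.10e-06) and -1.88 in NeuN- (SE 0.10, adjusted p = 4.63e-06). It was lower in NeuN+ within cerebellum (-0.55, adjusted p = 0.00190; -0.10 and not called with quantile normalization) and not called within prefrontal cortex (0.17, adjusted p = 0.165). The overlapping feature 1700027H10Rik was at 2.60 to 5.21 scaled FPKM in prefrontal libraries and 0 to 1.13 in cerebellar ones, so the sharing of fragments between the pair is uncertain.

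Pcdh11x, the X-linked delta1-protocadherin, followed the same regional order. Levels were 3.92 and 4.68 scaled FPKM in prefrontal NeuN+ and 5.94 and 5.56 in prefrontal NeuN-. The cerebellar values were 0.584 and 0.849 (NeuN+) and 0.624 and 0.469 (NeuN-). The 2 cerebellar groups overlapped and lay below the prefrontal ones. Its log2 change was -1.63 in NeuN+ (SE 0.11, adjusted p = 1.83e-05) and -2.13 in NeuN- (SE 0.11, adjusted p = 5.58e-06). The lower level in prefrontal NeuN+ (-0.35, adjusted p = 0.0289) lost its call with a pseudocount of 0.1, with no filter, with a common sum and without prefrontal NeuN+ replicate 1 or either prefrontal NeuN- library.

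Pcdh15, known for the tip links of hair cells in the inner ear, was lower in cerebellum in both gates and lower in NeuN+ in both regions. It was at 5.20 and 5.46 scaled FPKM in prefrontal NeuN+ and 9.20 and 9.30 in prefrontal NeuN-, and the cerebellar libraries held 0.763 and 0.733 (NeuN+) and 3.14 and 3.12 (NeuN-). No groups overlapped. The regional log2 changes were -1.86 in NeuN+ (SE 0.06, adjusted p = 7.55e-07) and -1.31 in NeuN- (SE 0.06, adjusted p = 3.50e-06). The gate changes were -0.69 in prefrontal cortex (SE 0.06, adjusted p = 8.16e-05) and -1.24 in cerebellum (SE 0.06, adjusted p = 5.58e-06).

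Pcdh20 was also lower in NeuN+ in both regions. Its levels were 1.02 and 1.12 scaled FPKM in prefrontal NeuN+ and 1.87 and 2.27 in prefrontal NeuN-. In cerebellum it was 0.0487 and 0.0322 in NeuN+ and 1.93 and 1.95 in NeuN-. The NeuN- groups of the 2 regions overlapped. The gate changes were -0.57 (SE 0.08, adjusted p = 7.29e-04) in prefrontal cortex and -1.50 (SE 0.08, adjusted p = 7.08e-06) in cerebellum, and the regional change in NeuN+ was -0.99 (SE 0.08, adjusted p = 3.61e-05). In the NeuN- gate it was -0.06 (adjusted p = 0.516). It was 0.14 with a common sum, and -0.21 and called with FPKM as deposited.

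Pcdh8, a delta2-protocadherin induced by neuronal activity that takes part in N-cadherin internalisation, was at 1.42 and 1.61 scaled FPKM in prefrontal NeuN+ and 0.831 and 0.823 in prefrontal NeuN-, and it was listed at 0 in all 4 cerebellar libraries. The deposited status was OK for every protocadherin value, so these zeros were not marked as failed estimates. No fold is given against a listed 0. It passed the filter only through prefrontal NeuN+, so its call there is not given as a result.

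Pcdh9, the delta1-protocadherin with the highest level of all 71 features, went against the regional pattern. It was at 26.4 and 25.9 scaled FPKM in prefrontal NeuN+ and 29.3 and 31.8 in prefrontal NeuN-. The cerebellar values were 25.7 and 27.6 (NeuN+) and 42.6 and 40.1 (NeuN-). The 2 NeuN+ groups overlapped, and both cerebellar NeuN- libraries were above all others. Between the NeuN+ groups the log2 change was 0.02 (SE 0.06, adjusted p = 0.739). Between the NeuN- groups Pcdh9 was higher in cerebellum (0.42, SE 0.06, adjusted p = 6.35e-04). It was lower in NeuN+ than NeuN- within cerebellum (-0.62, SE 0.06, adjusted p = 1.23e-04). The smaller prefrontal difference (-0.22, SE 0.06, adjusted p = 0.0169) was -0.01 with a common sum, and its call was lost there, with quantile normalization and without either prefrontal NeuN+ library or prefrontal NeuN- replicate 2.

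The 4 non-clustered genes that were too low to test were Pcdh1, Pcdh12, Pcdh18 and Pcdh19. Pcdh19, an X-linked delta2-protocadherin whose human counterpart is mutated in a female-limited epilepsy, was at 0.625 and 0.770 scaled FPKM in prefrontal NeuN+, 1.05 and 0.871 in prefrontal NeuN-, and 0.0185 to 0.0801 over the 4 cerebellar libraries. Pcdh18 was at 0.893 and 0.793 in prefrontal NeuN+, 0.272 and 0.439 in prefrontal NeuN- and 0.615 and 0.674 in cerebellar NeuN-, and was listed at 0 in both cerebellar NeuN+ libraries. Pcdh1 was at 0.215 to 1.19 over the 8 libraries. Pcdh12, a protocadherin of endothelial cells, was at 0.102 and 0.114 in prefrontal NeuN- and listed at 0 in the other 6 libraries. The 5 endothelial markers summed to at most 1.43 scaled FPKM in any library.

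Likeness between profiles was measured as the Pearson correlation of log2(scaled FPKM + 1) over the 8 libraries, for the 5 non-clustered genes with a mean of at least 5 in their highest group. The closest partner of Pcdh7 among the members tested was Pcdh17 (r = 0.990), that of Pcdh10 was Pcdh11x (r = 0.956), that of Pcdh15 was Pcdh10 (r = 0.895), that of Pcdh11x was Pcdhb9 (r = 0.983) and that of Pcdh9 was the C-type Pcdhgc4 (r = 0.725). The points are the same 8 libraries of 1 mouse, so these values only describe which profiles look alike.

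The promoters of Pcdh7 and Pcdh17, the pair with the highest correlation, are shown with those of Pcdh10, which was high in both prefrontal gates, and Pcdh9, which had a high level everywhere. Each is the 250 bases before the RefSeq start on GRCm38.p6 (another build than the mm9 of the tables), 5′ to 3′ on the strand of the gene, with CG dinucleotides in capitals. Pcdh7 is on the plus strand of chr5:57717831-57718080, Pcdh17 on the plus strand of chr14:84443313-84443562, Pcdh10 on the plus strand of chr3:45378148-45378397 and Pcdh9 (the first of its 2 listed starts) on the minus strand of chr14:93890680-93890929.
Pcdh7: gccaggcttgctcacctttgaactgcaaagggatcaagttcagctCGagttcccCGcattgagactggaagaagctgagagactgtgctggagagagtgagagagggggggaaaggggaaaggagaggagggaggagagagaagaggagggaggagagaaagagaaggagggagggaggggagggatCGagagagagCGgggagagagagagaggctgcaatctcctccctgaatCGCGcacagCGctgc
Pcdh17: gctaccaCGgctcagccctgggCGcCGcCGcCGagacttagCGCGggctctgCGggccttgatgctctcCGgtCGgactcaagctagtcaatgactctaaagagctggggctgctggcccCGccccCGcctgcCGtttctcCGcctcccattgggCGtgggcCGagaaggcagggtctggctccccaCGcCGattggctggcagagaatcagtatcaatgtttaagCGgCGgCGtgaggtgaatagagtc
Pcdh10: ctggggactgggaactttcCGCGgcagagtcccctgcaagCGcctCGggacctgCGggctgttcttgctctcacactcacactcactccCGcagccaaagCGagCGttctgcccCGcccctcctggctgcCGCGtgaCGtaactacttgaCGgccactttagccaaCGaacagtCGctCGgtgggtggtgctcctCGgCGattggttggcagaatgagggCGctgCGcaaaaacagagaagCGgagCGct
Pcdh9: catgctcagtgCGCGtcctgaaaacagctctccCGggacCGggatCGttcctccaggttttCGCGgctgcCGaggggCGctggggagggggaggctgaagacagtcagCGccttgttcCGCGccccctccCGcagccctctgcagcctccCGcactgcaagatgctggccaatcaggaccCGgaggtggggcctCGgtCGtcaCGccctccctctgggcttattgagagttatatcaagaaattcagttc
The motif CG reads the same on both strands and cannot overlap itself. Pcdh10 held 22 CG, Pcdh17 held 21 and Pcdh9 held 18, against a median of 6 over 32851 windows of the same length. Of all windows, 14.8%, 16.4% and 21.7% held at least as many. Pcdh7 held 7, and 46.3% of windows held at least that many. RefSeq entries matched 9 of the 12 non-clustered symbols. The other 5 windows held 23 CG for Pcdh18, 16 for Pcdh19, 11 for Pcdh8, 6 for Pcdh15 and 3 for Pcdh20. Pcdh7 and Pcdh17, the pair most alike in RNA, thus had windows with 7 and 21 CG. These counts describe the letters only.

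Pcdha and Pcdhb had their highest sums in prefrontal NeuN+, and Pcdhg in cerebellum. Each cluster was summed over its features in each library, a value less tied to the division of fragments than that of a single isoform. The Pcdha sum was 15.1 ± 0.0503 scaled FPKM in prefrontal NeuN+ (SD, n = 2) and 10.2 ± 0.321 in prefrontal NeuN-, and the cerebellar libraries held 8.73 ± 0.458 (NeuN+) and 5.85 ± 0.356 (NeuN-). The Pcdhb sum was 23.2 ± 1.23 in prefrontal NeuN+ and lay between 11.2 ± 0.340 in cerebellar NeuN+ and 13.4 ± 0.750 in cerebellar NeuN-, with 12.9 ± 0.0969 in prefrontal NeuN-. The Pcdhg sum ran the other way: 10.1 ± 0.518 in prefrontal NeuN+ and 12.2 ± 0.537 in prefrontal NeuN-. In cerebellum it was 19.4 ± 0.463 in NeuN+ and 18.1 ± 0.608 in NeuN-. Pcdha was thus 1.73 times as high in prefrontal as in cerebellar NeuN+, Pcdhb 2.07 times and Pcdhg 0.521 times. In NeuN- the ratios were 1.75, 0.962 and 0.673. The Pcdhg ratio in NeuN- rested on Pcdhgc4. This feature held at least 55.7% of the sum in cerebellar NeuN- and at most 28.7% in prefrontal NeuN-. The other Pcdhg features together were lower in cerebellar than in prefrontal NeuN-, but higher in cerebellar than in prefrontal NeuN+. Such shares of single features depend on how fragments were divided. The direction of the Pcdhb ratio in NeuN- depended on scaling. With FPKM as deposited, the Pcdhb sums were 14.9 and 14.4 in prefrontal NeuN- against 13.5 and 12.6 in cerebellar NeuN-. In Pcdha every NeuN+ library had a higher sum than the NeuN- libraries of its region (ratios of the means of 1.47 and 1.49). For Pcdhb the ratio was 1.80 in prefrontal cortex and 0.839 in cerebellum, and for Pcdhg 0.829 and 1.07. No p-value is given for these sums, which add up members.

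**Figure D2:**
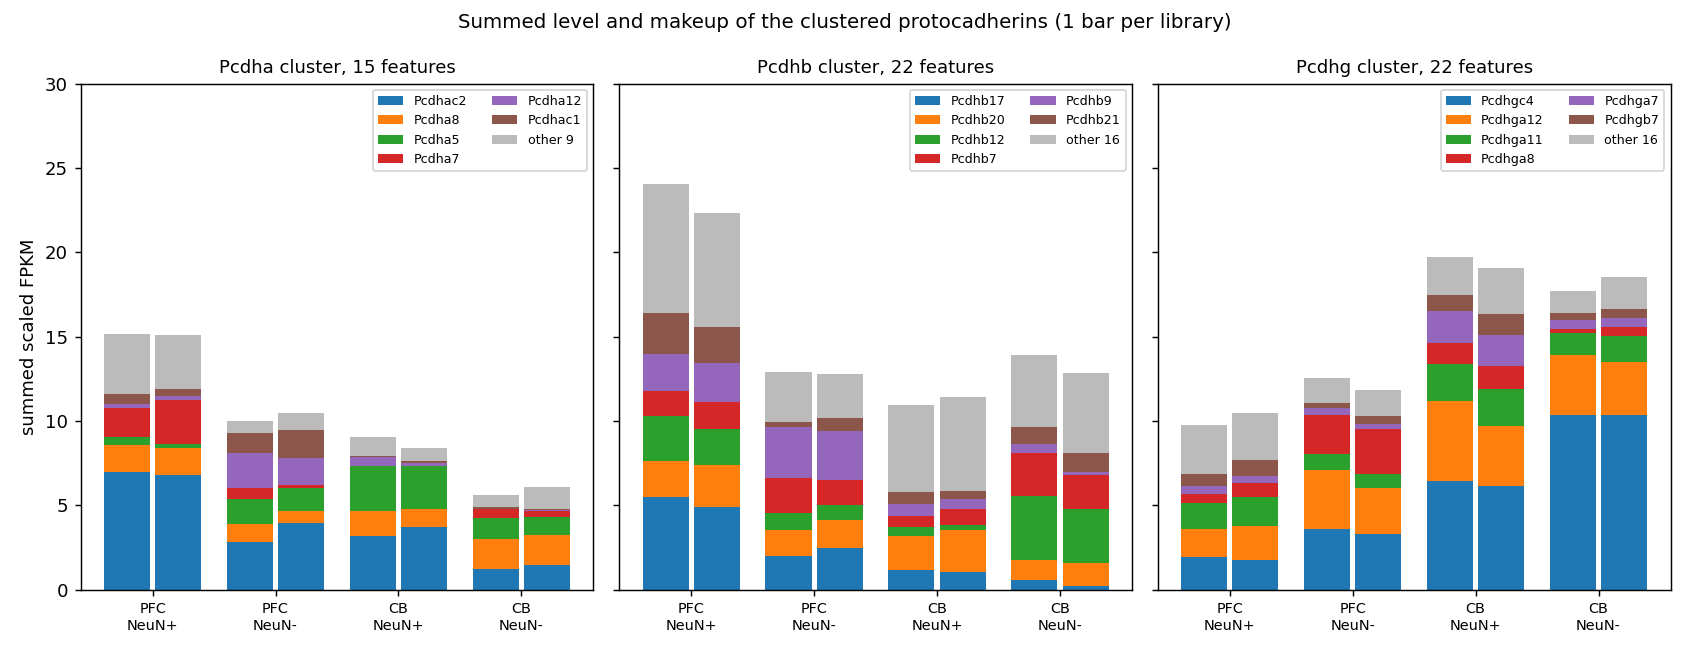
Summed scaled FPKM of each protocadherin cluster (vertical axis, from 0) in each library, with 1 bar per library and the 6 features with the highest mean level coloured; grey is the sum of the others. Pcdhb is tallest in prefrontal NeuN+ (24.0 and 22.3), and Pcdhg in the cerebellar libraries, where Pcdhgc4 takes up to 58.5% of the sum.

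The makeup of a cluster also differed between groups. The effective number of isoforms is the exponential of the Shannon entropy of the shares, and it equals the number of features if all are level. For Pcdhg it was 11.5 ± 0.589 in prefrontal NeuN+ (SD, n = 2), 7.21 ± 0.294 in cerebellar NeuN+, 6.45 ± 0.178 in prefrontal NeuN- and 4.34 ± 0.494 in cerebellar NeuN-. For Pcdhb it was 12.8 ± 0.0856 and 11.6 ± 0.0728 in the NeuN+ groups of prefrontal cortex and cerebellum, against 9.48 ± 0.0771 and 9.74 ± 0.173 in the NeuN- groups. In these 2 clusters each NeuN+ group was above the NeuN- group of its region. In Pcdha it was not so, with 6.64 ± 0.356 and 4.79 ± 0.574 in NeuN+ and 6.30 ± 0.603 and 6.25 ± 0.470 in NeuN-. These values lean on features under 1 FPKM. Over the features that passed the filter, Pcdhg was at 4.42 ± 0.0785 in prefrontal NeuN+ and 4.04 ± 0.00140 in NeuN-, with 4.26 ± 0.0757 and 2.78 ± 0.112 in cerebellum. The order of the gates was the same for Pcdhb (7.41 ± 0.150 against 6.07 ± 0.0841, and 7.60 ± 0.219 against 6.80 ± 0.0325). Pcdha then lay lower in NeuN+ in prefrontal cortex (3.37 ± 0.0926 against 4.98 ± 0.581) and in cerebellum (3.35 ± 0.323 against 4.00 ± 0.108). In every library the last features of each cluster, counted towards its 3′ end, held more of its sum than the first. The last 7 of 14 Pcdha features held 59.8% to 76.3% of their sum, the last 11 of 22 Pcdhb features 51.8% to 81.0%, and the last 11 of 22 Pcdhg features 69.7% to 90.7%. These stretches held 4 of the 6 tested Pcdha, 7 of the 9 tested Pcdhb and 3 of the 5 tested Pcdhg features. Single features made up much of the Pcdha and Pcdhg shares. Pcdhac2 alone held 46.0% in prefrontal NeuN+ replicate 1, and Pcdhgc4 58.5% in cerebellar NeuN- replicate 1.

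The 20 tested clustered features were not highest in the same group. In Pcdha, 2 features were highest in prefrontal NeuN+, 2 in prefrontal NeuN- and 1 in each cerebellar group. In Pcdhb the numbers were 3, 1, 2 and 3, and in Pcdhg they were 0, 1, 3 and 1. The heat map shows these levels by library.

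**Figure D3:**
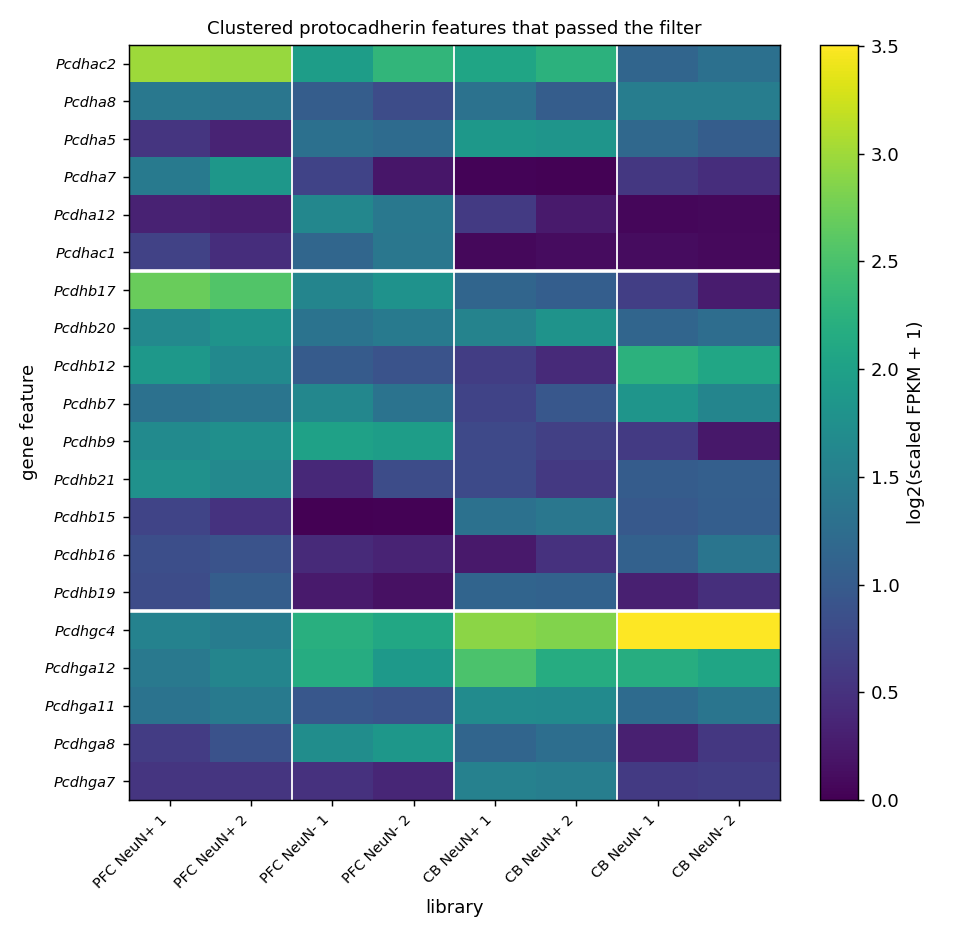
Level of the 20 clustered protocadherin features that passed the filter, as log2(scaled FPKM + 1) in colour, with features in rows (ordered by mean level within each cluster, clusters parted by white lines) and the 8 libraries in columns (PFC, prefrontal cortex; CB, cerebellum). Pcdhac2 and Pcdhb17 are brightest in prefrontal NeuN+, and Pcdhgc4 in cerebellar NeuN- (10.4 and 10.3 scaled FPKM).

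In Pcdha, the C-type Pcdhac2, whose variable exon is the nearest to the constant exons, had the highest mean level. It was at 6.96 and 6.80 scaled FPKM in prefrontal NeuN+ and 2.86 and 3.93 in prefrontal NeuN-. The cerebellar values were 3.17 and 3.75 (NeuN+) and 1.21 and 1.46 (NeuN-). It held 28.5% to 46.0% of the cluster's sum in the prefrontal libraries and 21.5% to 44.6% in the cerebellar ones. Pcdhac2 is the Pcdha isoform of serotonergic neurons and is not chosen at random. It was higher in NeuN+ in prefrontal cortex (0.85, SE 0.13, limma adjusted p = 0.00121) and in cerebellum (0.93, SE 0.13, adjusted p = 7.54e-04), and lower in cerebellum in NeuN+ (-0.83, SE 0.13, adjusted p = 0.00120) and NeuN- (-0.91, SE 0.13, adjusted p = 7.29e-04). The other C-type, Pcdhac1, was at 0.620 and 0.378 in prefrontal NeuN+, 1.24 and 1.61 in prefrontal NeuN-, and 0.0491 to 0.0880 in the 4 cerebellar libraries. It was thus highest in prefrontal NeuN-, the group through which it passed the filter.

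The remaining tested Pcdha isoforms each had a different high group, which for Pcdha7 and Pcdha12 is the one that brought them past the filter. Pcdha7 was at 1.69 and 2.60 scaled FPKM in prefrontal NeuN+ and 0.634 and 0.163 in prefrontal NeuN-, and the cerebellar libraries held 0.0233 and 0.0126 (NeuN+) and 0.480 and 0.376 (NeuN-). Pcdha12 was at 2.08 and 1.64 in prefrontal NeuN- and at 0.0443 to 0.514 in the other 6 libraries. Pcdha5 was highest in cerebellar NeuN+, at 2.66 and 2.54, with 0.461 and 0.276 in prefrontal NeuN+, 1.46 and 1.34 in prefrontal NeuN-, and 1.27 and 1.05 in cerebellar NeuN-. Pcdha8 was highest in cerebellar NeuN-, at 1.81 in both libraries, against 0.756 to 1.63 elsewhere. None of these high groups overlapped with another group. Pcdha5 was 1.40 higher in cerebellar than in prefrontal NeuN+ on the log2 scale (SE 0.09, adjusted p = 1.37e-05). Pcdha8 was higher in cerebellar than in prefrontal NeuN- (0.56, SE 0.12, adjusted p = 0.00425). The isoforms share their constant exons, so each of these values also depends on how fragments were divided.

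Pcdhb genes have no shared exon, and their values do not depend on such a division except where the paralogues are nearly identical. In prefrontal cortex 7 of the 9 tested were higher in NeuN+, none was lower and 2 were not called, where 35.0% of all features were higher and 37.6% lower (72.6% called). The median log2 change was 0.61, against -0.01 for all features. With FPKM as deposited, 1 of the 9 was called lower. When at least 4 libraries had to reach 1 FPKM, fewer members were tested and 3 were called higher. Pcdhb17, the highest of the cluster, was at 5.50 and 4.89 scaled FPKM in prefrontal NeuN+ and 2.02 and 2.45 in prefrontal NeuN-. In cerebellum it was 1.20 and 1.06 in NeuN+ and 0.571 and 0.208 in NeuN-. No groups overlapped. It was higher in NeuN+ in both regions (0.94 and 0.63, SE 0.14 each, adjusted p = 9.51e-04 and 0.00616) and lower in cerebellum in both gates (-1.54 and -1.23, SE 0.14 each, adjusted p = 6.59e-05 and 1.96e-04). Pcdhb21 was at 2.41 and 2.13 in prefrontal NeuN+ and 0.326 to 1.09 elsewhere, a prefrontal gate change of 1.10 (SE 0.15, adjusted p = 5.17e-04). Pcdhb15 (0.61) and Pcdhb19 (0.72) were also higher in prefrontal NeuN+, from 0.430 to 1.04 in NeuN+ against 0.00272 to 0.191 in NeuN-.

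In cerebellum the Pcdhb genes were split by the gate. Of the 9, 4 were higher in NeuN+, 3 were lower and 2 were not called, where 32.4% of all features were higher and 39.2% lower (71.6% called). Pcdhb12 was at 2.66 and 2.16 scaled FPKM in prefrontal NeuN+ and 1.01 and 0.865 in prefrontal NeuN-. The cerebellar values were 0.552 and 0.336 (NeuN+) and 3.77 and 3.23 (NeuN-). The cerebellar NeuN- libraries were highest and the cerebellar NeuN+ libraries lowest, with no overlap. The cerebellar gate change was -1.64 (SE 0.12, adjusted p = 2.57e-05), and the prefrontal one 0.82 (SE 0.12, adjusted p = 7.94e-04). Pcdhb7 and Pcdhb16 were the other 2 that were lower in cerebellar NeuN+ (-0.88 and -0.85). Pcdhb16 passed the filter only through cerebellar NeuN-, and without it 4 of 8 were higher and 2 lower. Pcdhb16 was also not called with quantile normalization, at -0.27. Pcdhb20 had nearly the same level in the NeuN+ groups, at 2.15 and 2.49 in prefrontal cortex and 1.97 and 2.47 in cerebellum. Pcdhb9 was at 2.19 to 3.01 in the prefrontal libraries and 0.170 to 0.709 in the cerebellar ones, with regional changes of -0.99 in NeuN+ (SE 0.12, adjusted p = 3.26e-04) and -1.57 in NeuN- (SE 0.12, adjusted p = 3.10e-05).

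All 5 tested Pcdhg features were higher in cerebellar than in prefrontal NeuN+, with a median log2 change of 0.84, and none of them was lower; 36.5% of all features were higher. Pcdhga7 passed the filter only through cerebellar NeuN+, and without it the count was 4 of 4. With Pcdhga7, the count was 3 without prefrontal NeuN+ replicate 1 or cerebellar NeuN+ replicate 2. In NeuN-, 3 were higher in cerebellum, 1 was lower and 1 was not called, where 40.5% of all features were higher and 39.0% lower (79.4% called). Pcdhgc4, a C-type isoform that neurons need for survival and that pairs with other isoforms to reach the cell surface, was the highest of the clustered features. It was at 1.93 and 1.77 scaled FPKM in prefrontal NeuN+ and 3.61 and 3.31 in prefrontal NeuN-, and the cerebellar libraries held 6.45 and 6.17 (NeuN+) and 10.4 and 10.3 (NeuN-). No groups overlapped. The regional change was 1.36 in NeuN+ (SE 0.07, adjusted p = 4.12e-06) and 1.35 in NeuN- (SE 0.07, adjusted p = 4.53e-06). The gate change was -0.65 in prefrontal cortex (SE 0.07, adjusted p = 1.80e-04) and -0.63 in cerebellum (SE 0.07, adjusted p = 1.86e-04). The other Pcdhg C-types were low: Pcdhgc5 was at 0.325 and 0.309 in prefrontal NeuN+ and at most 0.0706 elsewhere, and Pcdhgc3 was at most 0.151.

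Of the remaining Pcdhg features, Pcdhga7 was high in 1 group, cerebellar NeuN+, at 1.90 and 1.82 scaled FPKM against 0.304 to 0.553 in the other 6 libraries. Pcdhga8 was at 2.30 and 2.63 in prefrontal NeuN- against 0.547 and 0.838 in NeuN+. In cerebellum it was 1.21 and 1.40 in NeuN+ against 0.235 and 0.478 in NeuN-. It was lower in NeuN+ in prefrontal cortex (-1.04, SE 0.13, adjusted p = 3.36e-04) and higher in cerebellum (0.77, SE 0.13, adjusted p = 0.00140). Pcdhga11 was higher in NeuN+ in both regions (0.45 and 0.40, SE 0.08 each, adjusted p = 0.00172 and 0.00318). Pcdhga12 was at 1.67 and 2.02 in prefrontal NeuN+ and at 2.70 to 4.72 in the other 6 libraries, which overlapped.

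Over all 28 tested members, 14 were higher and 10 lower in prefrontal NeuN+ against NeuN-, and 10 were higher and 10 lower in cerebellum. These shares stand beside 72.6% and 71.6% of all features called. Over the 22 members that reached 1 FPKM in more than 1 group, 11 were higher and 8 lower in prefrontal cortex and 8 higher and 9 lower in cerebellum. Between regions, 7 of the 28 were higher and 16 lower in cerebellar NeuN+ (77.2% of all features called). In cerebellar NeuN- 9 of the 28 were higher and 10 lower (79.4% called). Over the 22 members, 6 were higher and 12 lower in cerebellar NeuN+, and 7 higher and 7 lower in cerebellar NeuN-. The split of calls over all features depends on library scaling. In the prefrontal gate comparison 48.2% of calls were higher, against 36.0% with FPKM as deposited and 59.9% with a common sum, which moved the median of all features from -0.01 to -0.19 and 0.14. In cerebellum the share was 45.2%, against 55.8% with quantile normalization. Between the NeuN- groups it was 51.0%, against 42.6% as deposited and 62.1% with a common sum, with medians of 0.02, -0.13 and 0.26. The members called in the prefrontal gate comparison were 11 higher and 11 lower as deposited, and 15 higher and 7 lower with a common sum.

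The gate comparisons of the 2 regions share no libraries and are set side by side here. They do share the mouse, the scaling, the filter and the fit's estimate of the spread, so their calls are not independent. Of the 28 members, 10 were called in the same direction in both regions and 7 in opposite directions, where 35.5% and 18.1% of all features were. Over the 22 members named above the numbers were 10 and 5. The same direction was higher in NeuN+ for Pcdhac2, Pcdhb15, Pcdhb17, Pcdhb19, Pcdhb20 and Pcdhga11, and lower for Pcdh9, Pcdh15, Pcdh20 and Pcdhgc4. The prefrontal call of Pcdhb20 (0.35, adjusted p = 0.0219) was lost with no filter, with FPKM as deposited and without prefrontal NeuN+ replicate 2 or prefrontal NeuN- replicate 1. The cerebellar call of Pcdhb15 (0.33, adjusted p = 0.0111) was lost without cerebellar NeuN+ replicate 2 or cerebellar NeuN- replicate 1. The prefrontal call of Pcdh9 was lost as described above. Pcdh7, Pcdh17, Pcdhb12 and Pcdhb16 were higher in prefrontal NeuN+ and lower in cerebellar NeuN+, and Pcdha5, Pcdha12 and Pcdhga8 the reverse. Among these, Pcdhb16 and Pcdha12 had each passed the filter only through their high group. The difference between the gate changes was itself tested. It was called for 21 of the 28 members (8 higher, 13 lower), among them all 7 with opposite directions, where 70.1% of all features were called (33.1% higher, 37.0% lower). Of the 22 members it was called for 15 (5 higher, 10 lower). Over all features the higher share of these calls was 47.2%, against 57.6% with FPKM as deposited and 37.7% with a common sum (medians -0.06, 0.13 and -0.23). Without prefrontal NeuN- replicate 1 or 2, or prefrontal NeuN+ replicate 1, the members called higher were 3, 4 and 5. The difference was -3.02 for Pcdh7 (SE 0.15, adjusted p = 1.09e-05), -2.46 for Pcdhb12 (SE 0.17, adjusted p = 3.51e-05) and -1.96 for Pcdh17 (SE 0.14, adjusted p = 4.60e-05). In the other direction it was 1.81 for Pcdhga8 (SE 0.18, adjusted p = 1.59e-04) and 1.55 for both Pcdha5 (SE 0.13, adjusted p = 8.25e-05) and Pcdha12 (SE 0.18, adjusted p = 3.30e-04), of which Pcdha12 was tested through its high group. Pcdhgc4 and Pcdhac2 had nearly the same gate change in both regions, with differences of 0.01 (SE 0.10) and 0.08 (SE 0.19). Of the 7 opposite members, Pcdha5, Pcdhb12 and Pcdhga8 were called in opposite directions in all 16 alternatives, Pcdh7 in 14, Pcdh17 in 13, Pcdhb16 in 12 and Pcdha12 in 7.

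**Figure D4:**
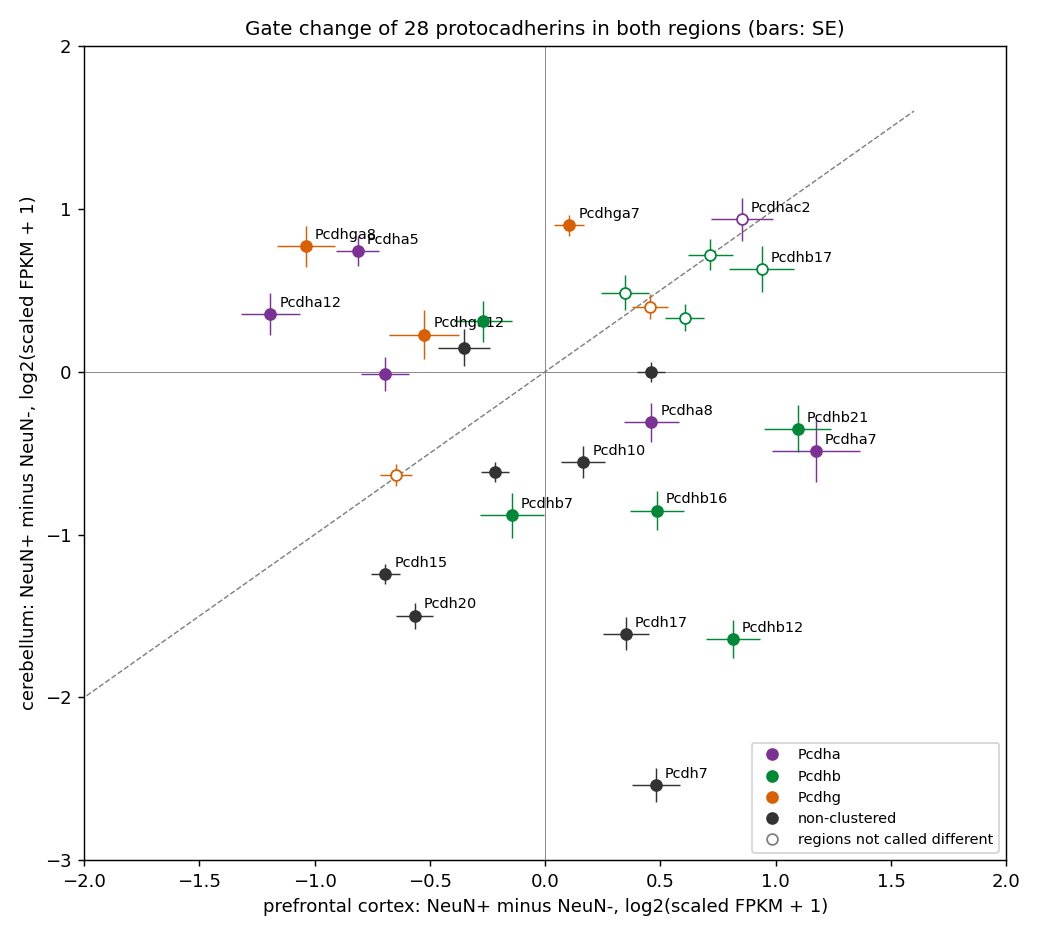
Change from NeuN- to NeuN+ of the 28 tested protocadherins in prefrontal cortex (horizontal axis) and cerebellum (vertical axis), both as differences of mean log2(scaled FPKM + 1), with SE bars from limma; filled points are members whose change differed between regions, and the dashed line marks equal change. Pcdh7, Pcdh17 and Pcdhb12 lie far below the line, and Pcdha5, Pcdha12 and Pcdhga8 above it.

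Regulators of clustered protocadherin promoters were followed as a list of 23 genes, all tested. CTCF and cohesin loop a promoter to its enhancer, and DNMT3B and SMCHD1 take part in silencing the others. In cerebellar against prefrontal NeuN+ 16 were higher, 3 lower and 4 not called (median 0.66), and in NeuN- 15 were higher, 4 lower and 4 not called (median 0.43). Of all features, 36.5% were higher and 40.7% lower in the first comparison (median -0.03) and 40.5% and 39.0% in the second (median 0.02). By the gate, 5 were higher and 7 lower in prefrontal cortex (35.0% and 37.6% of all features) and 9 higher and 7 lower in cerebellum (32.4% and 39.2%). Between the NeuN+ groups the cohesin subunit genes Rad21 and Smc1a rose by 1.20 (SE 0.10, adjusted p = 5.02e-05) and 1.15 (SE 0.06, adjusted p = 5.30e-06) and the de novo DNA methyltransferase gene Dnmt3b by 1.16 (SE 0.11, adjusted p = 9.54e-05). The cohesin loader gene Mau2 fell by 0.70 (SE 0.05, adjusted p = 1.43e-05). Between the NeuN- groups the cohesin release factor gene Wapal (1.40) and the loader gene Nipbl (1.13) were higher, and the cohesin subunit genes Stag2 (-0.53) and Rad21 (-0.40) were lower. Rest, the repressor of neuronal genes, was lower in NeuN+ in prefrontal cortex (-1.11) and cerebellum (-1.52).

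Intracellular partners and effectors formed a list of 23 genes, 22 of them tested. They include FAK and PYK2, the kinases held back by Pcdha and Pcdhg proteins, and the WAVE complex that binds delta-protocadherins. Of the 22, 7 were higher and 12 lower in cerebellar against prefrontal NeuN+ (median -0.62), and 6 were higher and 12 lower in the NeuN- gate, beside 36.5% and 40.7% of all features in NeuN+ and 40.5% and 39.0% in NeuN-. Ptk2b, which encodes PYK2, was lower in cerebellar NeuN+ (-3.53, SE 0.09, adjusted p = 2.52e-07), at a mean of 0.128 scaled FPKM there. Prkca fell by 2.77 (SE 0.09, adjusted p = 6.06e-07) and Ptk2, which encodes FAK, by 2.05 (SE 0.06, adjusted p = 3.74e-07). The WAVE subunit gene Wasf2 rose by 1.19 (SE 0.09, adjusted p = 2.24e-05). In prefrontal cortex 8 were higher and 6 lower in NeuN+, and in cerebellum 6 were higher and 12 lower, beside 35.0% and 37.6% of all features in prefrontal cortex and 32.4% and 39.2% in cerebellum.

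Other members of the cadherin superfamily made up the last list. Of 40 on the list, 38 were in the tables and 25 were tested. In cerebellar against prefrontal NeuN+ 9 were higher, 12 lower and 4 not called (median -0.02), and in NeuN- 14 were higher, 10 lower and 1 not called; the shares of all features were 36.5% and 40.7% in NeuN+ and 40.5% and 39.0% in NeuN-. The protocadherin-like giant cadherin gene Fat2, a marker of granule cells, was at a mean of 24.5 scaled FPKM in cerebellar NeuN+ and listed at 0 in prefrontal NeuN+. Cdh15 was 4.29 higher in cerebellar NeuN+ (SE 0.08, adjusted p = 9.41e-08), and Cdh13 and Cdh10 were lower (-4.92 and -4.07, SE 0.07 and 0.10, adjusted p = 4.91e-08 and 2.18e-07). In the difference between gate changes 8 were higher, 16 lower and 1 was not called (median -0.82), where 33.1% of all features were higher and 37.0% lower (median -0.06).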

How the data were processed

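The 8 RNA libraries of sorted nuclei (4 groups of 2, all from 1 mouse) were used as gene-level FPKM. Per the submitters' processing notes, Trim Galore 0.3.7, TopHat2 2.1.1, Bowtie 1.1.1 and Cufflinks are named with the mouse build mm9, without their order or settings. The deposited FPKM values come in the column layout of Cufflinks per the file headers, with 1 value and its bounds per gene feature. The gene annotation, the use of strand and the division of fragments over shared exons are not stated there. Among values with few implied fragments, only 49.3% to 54.2% had a whole number of them (within 0.05). No count test was therefore run, and the depth is known only in relative terms.

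Values were scaled by the median of ratios over the 9109 features that reached 1 FPKM in every library. The 14376 features with at least 1 FPKM as deposited in at least 2 libraries were fitted on log2(scaled FPKM + 1) with limma 3.58.1 (R 4.3.3), with 1 mean per group, a variance trend and all 4 groups in the fit. The p-values (two-sided) were adjusted by Benjamini-Hochberg over all 14376. Replicate libraries had a Spearman correlation of 0.972 to 0.977 within groups, and no pair was identical. On simulated data for the prefrontal gate comparison (14376 genes, 50 changed per fold size), 54.0% of 1.25-fold, 96.0% of 1.5-fold and 100% of 2-fold and 4-fold changes were called. The changed genes had a mean log2(scaled FPKM + 1) above 1, and few genes changed, whereas 72.6% of features were called in the data. These shares therefore need not hold for these data or for the low protocadherins. Named members were every non-clustered gene, the C-types, the 3 highest features of each cluster, and the 3 largest called changes per cluster and comparison with a mean of at least 1 in the higher group. From each list, up to 3 genes per direction could be named by the same floor. Alternatives were a pseudocount of 0.1, no filter, a stricter filter, FPKM as deposited, a common sum, quantile normalization, the replicate number as a block, limma without the variance trend, each cluster summed, and leaving out each library in turn. The study's other samples were not analysed here. The members and lists were chosen with earlier results of these data known.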

Additional observations from a re-analysis of the deposited data

Results flagged for a closer look

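For 21 of the 28 tested protocadherins the change from NeuN- to NeuN+ differed between cerebellum and prefrontal cortex, by the interaction term of the limma fit over all features (adjusted p under 0.05), where 70.1% of all features were called. The values are the cerebellar minus the prefrontal log2 change, each from 2 libraries per group. Pcdh8, Pcdha7, Pcdha12, Pcdhac1, Pcdhb16 and Pcdhga7 reached 1 FPKM in only 1 group and were tested because they were high there. Their calls are therefore no independent support. Without them the difference was called for 15 of 22 members (5 higher, 10 lower). Among the non-clustered genes the difference was -3.018 for Pcdh7, -1.96 for Pcdh17, -0.9318 for Pcdh20, -0.719 for Pcdh10, -0.5469 for Pcdh15 and -0.4 for Pcdh9, and it was 0.4996 for Pcdh11x. It was -0.4586 for Pcdh8, which was listed at 0 in all 4 cerebellar libraries. That value is only its prefrontal gate change with the sign reversed, and it is not given as a regional difference. In Pcdha it was 1.552 for Pcdha5, 1.547 for Pcdha12 and 0.6821 for Pcdhac1, and -1.662 for Pcdha7 and -0.7723 for Pcdha8. In Pcdhb it was -2.456 for Pcdhb12, -1.447 for Pcdhb21, -1.339 for Pcdhb16 and -0.7387 for Pcdhb7, and 0.5781 for Pcdhb9. In Pcdhg it was 1.808 for Pcdhga8, 0.7955 for Pcdhga7 and 0.752 for Pcdhga12. The call was lost with quantile normalization for Pcdh10 (-0.25), Pcdh15 (-0.16) and Pcdhb7 (-0.43), and with FPKM as deposited for Pcdh9 (-0.17). With no filter it was lost for Pcdh11x, Pcdhb9 and Pcdhga12, and with a pseudocount of 0.1 and with a common sum for Pcdh11x (0.74 and 0.32) and Pcdhb9 (1.24 and 0.44). Each of these 3 also lost it without single libraries: Pcdhga12 without prefrontal NeuN+ replicate 1 (0.67), prefrontal NeuN- replicate 1 (0.60) or cerebellar NeuN- replicate 2 (0.69), Pcdh11x at 0.40 to 0.54 in 5 of the 8 leave-outs (prefrontal NeuN+ replicate 1, either prefrontal NeuN- library, and replicate 2 of each cerebellar group), and Pcdhb9 at 0.53 to 0.60 in 4 (prefrontal NeuN+ replicate 1, either prefrontal NeuN- library and cerebellar NeuN+ replicate 1).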

How the results depend on the processing

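Over all alternatives, 2050 of 2175 recomputed log2 changes of the 28 members stayed on the same side of the threshold. Called ones among them also kept their direction, while uncalled ones could change sign. A further 81 lost the call, 43 gained one, and 1 gained a call against its main direction. That was Pcdhac1 in the cerebellar gate comparison, at 0.361 with quantile normalization. The counts of called members moved mainly with how many were tested (28; 71 with no filter, 19 when 4 libraries had to reach 1 FPKM, 11 with each cluster summed). In the prefrontal gate comparison the members called higher were 14, and 32, 8 and 5 under these 3 alternatives, and those called lower were 10, and 5 with clusters summed. In cerebellum those higher were 10, and 6 and 1 with the stricter filter and with clusters summed. Between the NeuN+ groups those higher were 7, and 11 and 1 with no filter and with clusters summed, and those lower were 16, and 33 and 9. Between the NeuN- groups those higher were 9, and 5 and 2 with the stricter filter and with clusters summed, and those lower were 10, and 17 and 5 with no filter and with clusters summed. For the difference between gate changes those higher were 8, and 5 and 2 with the stricter filter and with clusters summed, and those lower were 13, and 29 and 8 with no filter and with clusters summed. Leaving out each library in turn, the members called lower in the prefrontal gate comparison ranged from 6 (without either prefrontal NeuN- library) to 11, and those higher in the difference between gate changes from 3 (without prefrontal NeuN- replicate 1) to 8; the lone library of a group was then assumed to vary like the other groups. Chosen after seeing the data, leaving out the 6 members that reached 1 FPKM in only 1 group took the members called higher in the difference between gate changes from 8 to 5, and kept the other 9 counts within 1.5 times. Opposite gate directions were called for 5 to 10 members. Same-numbered libraries did not deviate together (correlations from -0.0451 to 0.0342). With the replicate number as a block, the members called higher and lower in the prefrontal gate comparison stayed at 14 and 10, Pcdhga7 lost its call between the NeuN- groups (adjusted p = 0.0572 by limma) and Pcdha8 gained one in the cerebellar gate comparison (adjusted p = 0.0358 by limma). Each cluster's sum and effective number of isoforms moved by more than 1 SD over the features that passed the filter (24 of 24 values). With FPKM as deposited, 5 of the 24 values moved by more than 1 SD. Depth is unknown in counts, so no detection limit is given for features listed at 0.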
